A study of Mus musculus with 9 samples.

Results

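Mitosis and spindle genes encode the machinery that condenses chromosomes, attaches them to the spindle, separates them at anaphase and divides the cell, and 54 of them were followed here in mouse peritoneal macrophages. They were found by symbol, through GENCODE M21, among 47729 gene identifiers, by a fixed list of symbols. In dividing cells most of these genes are transcribed mainly late in the cycle, in G2 and M phase. The cyclin-dependent kinase Cdk1 with cyclin B starts mitosis, the kinetochore ties each chromosome to spindle microtubules, and the spindle checkpoint delays the anaphase-promoting complex until every chromosome is attached. Peritoneal macrophages can multiply in place, and IL-4 given into the cavity is a known stimulus for this.

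RNA was sequenced from 3 groups of 3 libraries of sorted cells. All mice carried Cx3cr1CreERT2-IRES-EYFP/+ and Rosa26-stopfl-tdTomato/+, that is, a tamoxifen-inducible Cre and yellow fluorescent protein driven from Cx3cr1, and a red reporter that Cre switches on. All 3 groups, the resident one included, had received complexes of IL-4 with an antibody to IL-4 in the peritoneum, every other day, beginning 4 days ahead of harvest. Monocyte-derived macrophages came from mice given 2 ml of thioglycollate, an irritant that draws monocytes into the cavity, and were taken at day 4. Converted macrophages came from mice given 2 ml of thioglycollate and kept on tamoxifen diet throughout the 10 weeks before harvest. For resident macrophages the labels give no thioglycollate or tamoxifen. Time since thioglycollate and tamoxifen thus differ together with the groups and cannot be told apart from them. The labels do not state the age or sex of the mice or how the sort was gated. They also do not say whether libraries of 1 group are from different animals, so each p-value reflects variation among these libraries, which may be technical.

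Each library held 15220884 to 20496258 reads in genes, and all 54 genes passed the filter on low counts. The fewest reads of any of them in a library was 41, and 209 in a converted or resident library. The macrophage marker Csf1r was even, at 1157, 1072 and 1052 CPM (reads of the gene per 1000000, on scaled library totals) in monocyte-derived libraries 1, 2 and 3, 1126, 1073 and 1158 in the converted and 1113, 1062 and 1136 in the resident libraries. Adgre1, which encodes F4/80, was at 223, 421 and 385 CPM in the monocyte-derived libraries, 3138, 2669 and 3413 in the converted and 2943, 3008 and 2974 in the resident libraries. Fcgr1 was the 1 of 9 macrophage markers below 1 CPM in the converted and resident means. The 9 did not move together against the monocyte-derived group. In edgeR, at an adjusted p below 0.05, 3 were higher and 3 lower in converted macrophages, with log2 changes from -5.10 to 3.16. In resident macrophages 3 were higher and 3 lower too, from -4.88 to 3.12. Over all tested genes, 25.8% and 25.7% were higher in these comparisons, in that order, and 24.9% lower in each. Xist, a transcript of female cells, stood at 52.01, 41 and 101 CPM in the monocyte-derived libraries and at 0 in every converted and in 2 resident libraries. The Y-linked Ddx3y was at 0 in the monocyte-derived libraries, at 84.5, 93.7 and 96 CPM in the converted and at 92.5, 93.3 and 85.8 CPM in the resident libraries. The monocyte-derived group therefore differed from both others in a sex-linked way too, which cannot be told apart from group in either comparison with it.

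The mitosis genes were low in monocyte-derived macrophages and several-fold higher in both other groups. Their CPM summed to 750.7, 1597 and 2222 in monocyte-derived libraries 1, 2 and 3, to 5244, 7655 and 5761 in the converted and to 4305, 4391 and 4173 in the resident libraries. The group values were 1523 ± 738 (SD, n = 3), 6220 ± 1269 and 4290 ± 109.9 CPM in that order. The 3 groups did not overlap in this sum, and converted library 2 was the highest of the 9. Every one of the 54 genes had its lowest group mean in monocyte-derived macrophages, 53 had the highest mean in converted macrophages, and 1, Pttg1, had it in resident macrophages. In these bulk samples, fewer dividing cells and less mitotic RNA per dividing cell cannot be told apart.

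**Figure D1:**
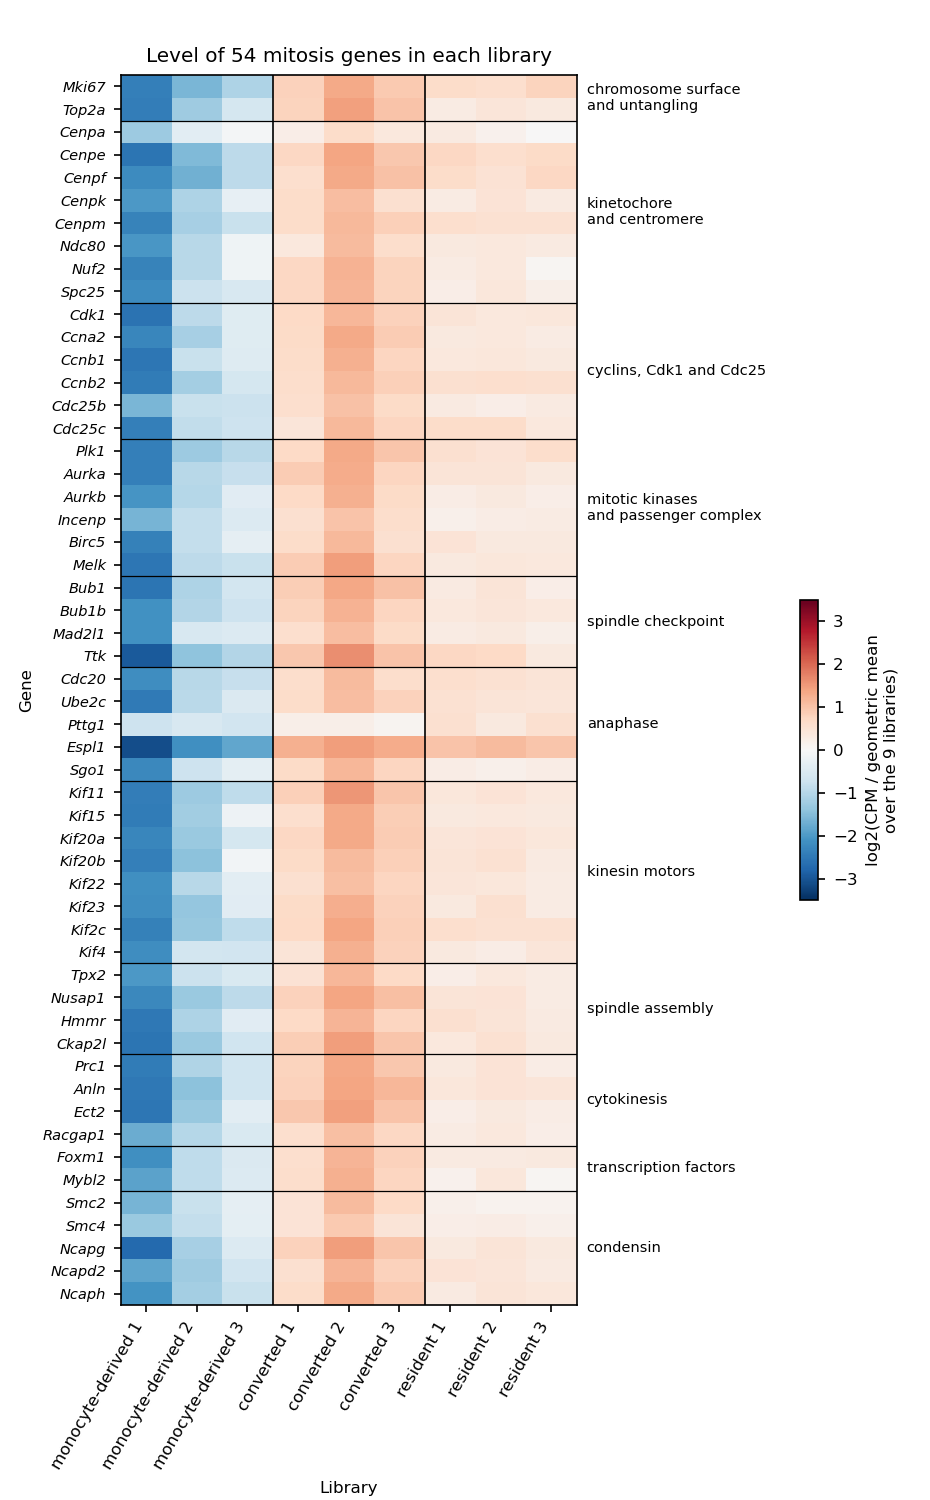
Level of each of the 54 genes (rows, grouped by role) in each of the 9 libraries (columns), as log2 of CPM over the gene's geometric mean across libraries; blue is below and red above that mean. Monocyte-derived library 1 is the lowest column for all 54 genes, converted library 2 is the highest converted column for all 54, and Pttg1 is the most even row across the monocyte-derived columns.

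In converted against monocyte-derived macrophages, all 54 genes were higher (edgeR's quasi-likelihood test, Benjamini-Hochberg adjusted p below 0.05), where 25.8% of the 13223 tested genes were called higher. The median log2 change of the 54 was 2.00, a 4.00-fold rise, with a range from 0.82 for Pttg1 to 3.60 for Espl1, and the median over all tested genes was -0.01. For each of the 54, every converted library lay above every monocyte-derived library, which held for 28.6% of tested genes. In resident against monocyte-derived macrophages, 53 of 54 were higher, against 25.7% of tested genes. The median log2 change was 1.54, or 2.90-fold, with a range from 0.66 for Cenpa to 3.29 for Espl1. Cenpa was the 1 gene not called, at an adjusted p of 0.0567. With the summed level of B-cell markers as a covariate, 0 of 54 were called in resident macrophages, where 1.34% of all tested genes were called. The median log2 change of the 54 was then -0.47. The B-cell sum was 1195 to 1546 CPM in the resident and 41.2 to 82.0 CPM in the monocyte-derived libraries, so the covariate and the group nearly coincide. All 54 had every resident library above every monocyte-derived library, against 30.6% of tested genes. Without the filter on low counts 34 of the 54 were called in resident macrophages, where 13.8% of the 25750 genes then tested were called higher. Both comparisons use the same monocyte-derived libraries, so they are not independent of each other.

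**Figure D2:**
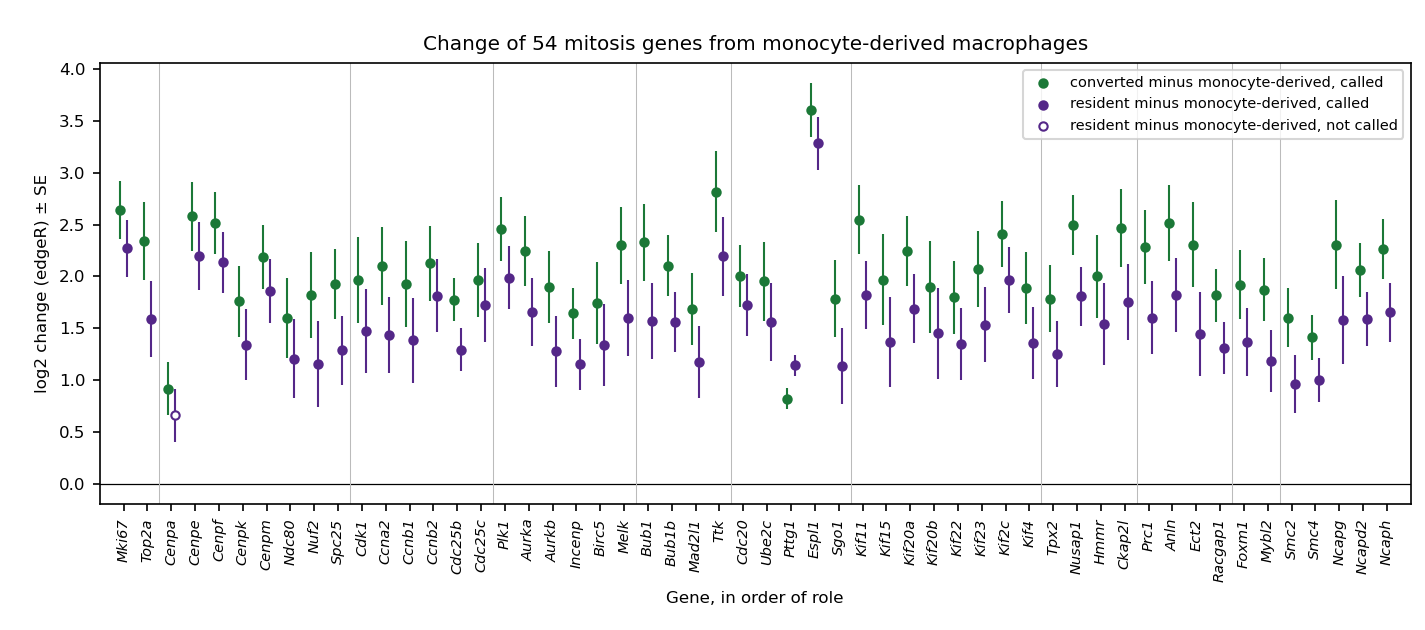
The log2 change of each gene from monocyte-derived macrophages (vertical axis, edgeR estimate, bars ± SE) in converted (green) and resident (purple) macrophages, in order of role. All points lie above 0; Espl1 is the highest in both, Pttg1 is the lowest in converted, and the open point is Cenpa in resident macrophages, which was not called.

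Levels between genes were compared per kilobase of exon. On this scale the median gene stood at 5.13 CPM per kb for the monocyte-derived, 21.4 for the converted and 13.8 for the resident group. The lowest gene of each group was at 0.659, 3.10 and 2.32 CPM per kb and the highest at 23.4, 102 and 82.1 CPM per kb, in the same order. The 54 genes thus covered a wide range of levels while moving in 1 direction.

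Mki67 encodes Ki-67, the coat protein of mitotic chromosomes that is used as a marker of cycling cells. It was at 15.6, 26.97 and 38.2 CPM in the monocyte-derived libraries, 143, 204 and 155 in the converted and 127, 121 and 140.2 in the resident libraries. The monocyte-derived libraries lay apart below all others, and the converted libraries lay above all resident ones by a narrow margin. Its log2 change was 2.64 ± 0.28 (SE; adjusted p = 5.08e-05) in converted and 2.27 ± 0.28 (adjusted p = 0.000123) in resident macrophages. Top2a, the topoisomerase that untangles sister chromatids, was at 31.8, 72.4 and 112 CPM in the monocyte-derived libraries, 292, 464 and 339 in the converted and 208, 226 and 215 in the resident libraries. It rose by 2.34 ± 0.38 and 1.59 ± 0.37 on the log2 scale, and here the converted libraries stood further above the resident ones.

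Of the 8 kinetochore and centromere genes, all rose in converted and 7 in resident macrophages. Cenpa, the histone H3 variant that marks the centromere, was at 29.6, 55.5 and 68.95 CPM in the monocyte-derived libraries, 85.04, 113 and 92.9 in the converted and 90.1, 80.7 and 72.3 in the resident libraries. Monocyte-derived library 3 came close to the lowest resident library, and converted and resident libraries overlapped. The change of Cenpa was 0.92 ± 0.26 (adjusted p = 0.0143) in converted and 0.66 ± 0.26 in resident macrophages. Cenpe, a kinesin of the kinetochore that helps chromosomes to align, was at 4.90, 9.99 and 15.3 CPM in the monocyte-derived libraries, 48.05, 75.1 and 55.9 in the converted and 47.5, 43.5 and 46.3 in the resident libraries. It rose by 2.58 ± 0.33 and 2.20 ± 0.33, the largest log2 changes of the 8 genes, and none of its groups overlapped. Spc25, a subunit of the Ndc80 complex that grips microtubules, was at 8.63, 23.6 and 27.2 CPM in the monocyte-derived libraries, 65.9, 90.3 and 68.2 in the converted and 46.6, 52.3 and 45.7 in the resident libraries. Cenpm, part of the constitutive centromere network, was at 3.78, 8.61 and 11.2 CPM in the monocyte-derived libraries, 30.3, 41.9 and 34.5 in the converted and 29.1, 27.9 and 28.1 in the resident libraries. For both, monocyte-derived library 1 was the lowest and converted library 2 the highest of the 9. Cenpf, Cenpk and the Ndc80 complex subunits Ndc80 and Nuf2 had log2 changes of 1.60 to 2.52 in converted and 1.16 to 2.14 in resident macrophages.

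All 6 genes of the Cdk1 engine rose in both. Cdk1, the kinase that starts mitosis, was at 12.8, 41.4 and 57.6 CPM in the monocyte-derived libraries, 126, 174 and 134 in the converted and 107, 101 and 102 in the resident libraries. Ccnb2, a cyclin B that activates it, was at 15.4, 37.02 and 54.9 CPM in the monocyte-derived libraries, 130.2, 186 and 150.1 in the converted and 126, 127 and 124 in the resident libraries. The resident libraries agreed within a few CPM for both genes, whereas the monocyte-derived libraries spread over a several-fold range. Cdk1 rose by 1.96 ± 0.41 (adjusted p = 0.00317) and 1.47 ± 0.41 (adjusted p = 0.0135) on the log2 scale. Ccna2, cyclin A, which acts from S phase into early mitosis, was at 23.3, 50.6 and 84.2 CPM in the monocyte-derived libraries, 179.6, 285 and 211 in the converted and 142, 147 and 138 in the resident libraries. Its groups did not overlap, and it was the gene of these 6 that stood furthest above the resident level in converted macrophages. Cdc25c, a phosphatase that activates Cdk1, was at 2.40, 6.93 and 7.70 CPM in the monocyte-derived libraries, 17.1, 27.8 and 21.1 in the converted and 19.9, 19.9 and 16.2 in the resident libraries, and its converted and resident libraries overlapped. Ccnb1, the main mitotic cyclin, and the phosphatase Cdc25b rose by 1.93 ± 0.41 and 1.78 ± 0.21 in converted and by 1.38 ± 0.41 and 1.29 ± 0.21 in resident macrophages.

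The 6 mitotic kinases and passenger genes all rose. Incenp, the scaffold of the chromosomal passenger complex, was at 38.6, 67.1 and 85.8 CPM in the monocyte-derived libraries, 177, 239 and 182 in the converted and 136, 144 and 146 in the resident libraries. Aurkb, the kinase of that complex, which corrects faulty attachments, was at 21.3, 45.05 and 68.4 CPM in the monocyte-derived libraries, 145, 214 and 142 in the converted and 107, 114 and 105 in the resident libraries. The 3 groups did not overlap for either gene. Aurkb rose by 1.90 ± 0.35 (adjusted p = 0.0014) and 1.28 ± 0.34 (adjusted p = 0.0113), and Incenp by 1.64 ± 0.25 and 1.15 ± 0.24. Plk1, which matures centrosomes, Aurka, its partner at the spindle poles, Birc5 (survivin), the third passenger subunit here, and the kinase Melk had log2 changes of 1.74 to 2.45 in converted and 1.34 to 1.99 in resident macrophages.

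All 4 spindle checkpoint genes rose. Bub1, a kinase that gathers the checkpoint at kinetochores, was at 8.05, 22.5 and 30.1 CPM in the monocyte-derived libraries, 86.5, 120.5 and 96.6 in the converted and 59.03, 64.9 and 55.7 in the resident libraries. Bub1b, which encodes BubR1 of the complex that blocks Cdc20, was at 15.1, 32.4 and 39.97 CPM in the monocyte-derived libraries, 112, 152 and 112 in the converted and 84.2, 88.02 and 84.4 in the resident libraries. Both showed 3 separate groups with the resident libraries in the middle. Ttk, the kinase MPS1 at the top of the checkpoint, was at 2.19, 6.29 and 8.21 CPM in the monocyte-derived libraries, 31.97, 51.1 and 33.3 in the converted and 27.6, 26.9 and 20.98 in the resident libraries. It rose by 2.82 ± 0.39 (adjusted p = 0.000261) in converted and 2.19 ± 0.38 (adjusted p = 0.00117) in resident macrophages, and its lowest value, in monocyte-derived library 1, rests on 41 reads. Mad2l1, the Cdc20 inhibitor MAD2, rose by 1.68 ± 0.35 and 1.18 ± 0.34.

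The 5 anaphase genes held both extremes of the set in converted against monocyte-derived macrophages. Espl1, separase, the protease that cuts cohesin to release sister chromatids, was at 5.86, 11.4 and 14.3 CPM in the monocyte-derived libraries, 119, 140.0 and 124 in the converted and 101, 108 and 97.8 in the resident libraries. The monocyte-derived libraries were far below the rest, and converted and resident libraries did not overlap. Espl1 was 12.2-fold higher in converted (log2 change 3.60 ± 0.26, adjusted p = 4.11e-06) and 9.75-fold higher in resident macrophages (3.29 ± 0.26, adjusted p = 7.13e-06). Pttg1, securin, which holds separase inactive until anaphase, was at 12.7, 14.2 and 13.3 CPM in the monocyte-derived libraries, 24.1, 24.4 and 22.6 in the converted and 30.9, 26.8 and 31 in the resident libraries. Its monocyte-derived libraries agreed closely, and the resident libraries were all above the converted ones, an order that none of the other 53 genes showed. Pttg1 rose by 0.82 ± 0.10 (adjusted p = 0.000125) in converted and 1.14 ± 0.10 (adjusted p = 1.48e-05) in resident macrophages. Separase and its inhibitor therefore had the largest and the smallest log2 change of the 54 genes in converted macrophages.

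Cdc20, the activator that turns on the anaphase-promoting complex, was at 14.2, 32.6 and 36.8 CPM in the monocyte-derived libraries, 97.8, 138 and 98.2 in the converted and 96.6, 92.4 and 86.6 in the resident libraries. Ube2c, the ubiquitin-conjugating enzyme of that complex, was at 18.1, 52.7 and 70.8 CPM in the monocyte-derived libraries, 159, 212 and 178 in the converted and 146, 138 and 134 in the resident libraries. In Cdc20, converted library 1 was barely above resident library 1, and in Ube2c the 3 groups lay apart. The changes of Cdc20 were 2.00 ± 0.30 and 1.73 ± 0.30, and Sgo1, shugoshin, which protects centromeric cohesin, rose by 1.79 ± 0.37 and 1.14 ± 0.37.

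**Figure D3:**
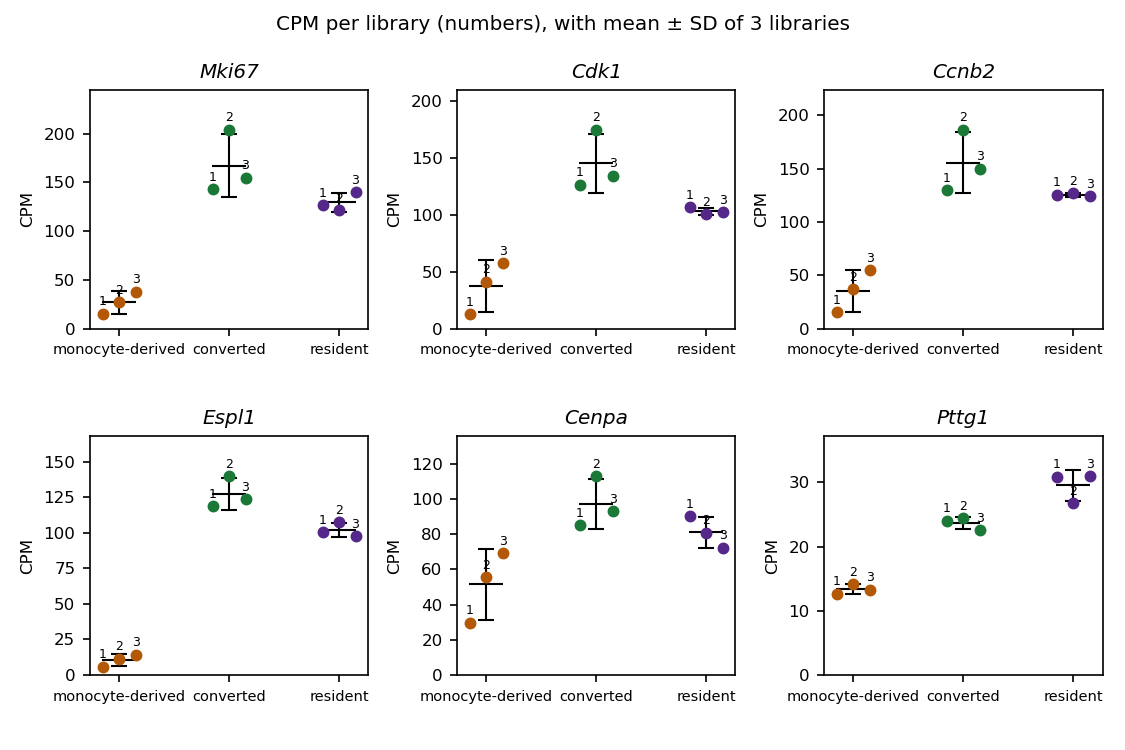
CPM of 6 genes in each library (points, numbered by library), with the mean and SD of the 3 libraries of a group; each vertical axis starts at 0. In the panels for Mki67, Cdk1, Ccnb2 and Espl1 converted library 2 is the highest point, Cenpa is the gene whose monocyte-derived and resident libraries come closest, and Pttg1 is highest in the resident libraries.

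The promoters of a few of these genes are shown because late cell cycle genes are known to carry 2 short elements near their start, the CHR (cell cycle genes homology region, bound by MuvB complexes) and the CCAAT box (bound by NF-Y), and Espl1, with the largest change in both comparisons with monocyte-derived macrophages, and Pttg1 and Cenpa, with the smallest in converted and in resident macrophages, are shown beside other members. Each stretch is the 150 bases before the RefSeq start on GRCm38.p6, read on the strand of the gene. Capitals mark TTTGAA or TTCGAA (CHR) and CCAAT, on either strand, so that TTCAAA and ATTGG are the same elements read backwards.
Espl1 (chr15:102296143-102296292, plus strand), the largest change:
Espl1: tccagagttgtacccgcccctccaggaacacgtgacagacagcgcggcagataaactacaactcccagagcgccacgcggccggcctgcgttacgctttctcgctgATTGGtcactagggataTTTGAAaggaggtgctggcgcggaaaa
Mki67 (chr7:135716380-135716529, minus strand), the proliferation marker:
Mki67: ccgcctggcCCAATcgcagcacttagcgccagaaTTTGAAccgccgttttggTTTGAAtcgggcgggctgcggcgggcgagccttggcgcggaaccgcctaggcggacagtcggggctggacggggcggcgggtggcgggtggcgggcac
Top2a (chr11:99024190-99024339, minus strand), the richest in these elements among the stretches shown:
Top2a: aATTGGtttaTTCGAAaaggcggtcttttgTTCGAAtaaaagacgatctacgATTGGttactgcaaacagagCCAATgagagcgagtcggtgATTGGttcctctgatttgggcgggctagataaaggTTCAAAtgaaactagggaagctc
Cdk1 (chr10:69352913-69353062, minus strand), the mitotic kinase:
Cdk1: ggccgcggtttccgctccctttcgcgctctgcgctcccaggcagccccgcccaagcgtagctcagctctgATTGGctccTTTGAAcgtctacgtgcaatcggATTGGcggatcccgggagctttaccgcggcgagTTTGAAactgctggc
Cdc20 (chr4:118437344-118437493, minus strand), the anaphase activator:
Cdc20: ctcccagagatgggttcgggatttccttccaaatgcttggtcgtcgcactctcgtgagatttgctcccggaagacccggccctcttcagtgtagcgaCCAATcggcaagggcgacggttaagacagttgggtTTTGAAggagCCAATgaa
Cenpa (chr5:30666736-30666885, plus strand), the smallest change in resident macrophages:
Cenpa: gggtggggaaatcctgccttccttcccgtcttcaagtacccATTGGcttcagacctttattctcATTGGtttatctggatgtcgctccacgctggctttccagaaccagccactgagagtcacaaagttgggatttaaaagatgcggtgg
Pttg1 (chr11:43425982-43426131, minus strand), the smallest change in converted macrophages:
Pttg1: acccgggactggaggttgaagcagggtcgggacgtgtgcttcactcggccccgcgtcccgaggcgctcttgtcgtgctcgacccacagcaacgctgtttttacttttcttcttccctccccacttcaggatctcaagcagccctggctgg

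In these stretches Espl1 held 1 TTTGAA and 1 CCAAT, Mki67 held 2 and 1, Cdk1 held 2 of each, and Top2a held 1 TTTGAA, 2 TTCGAA and 4 CCAAT. Cenpa held 2 CCAAT and no CHR, and Pttg1 held neither element in the stretch shown. By the GENCODE coordinates, the Pttg1 stretch lay wholly inside its gene (chr11:43420250-43426251). Most of the Cenpa stretch also lay inside its gene (chr5:30666777-30674830). What these stretches lack therefore does not describe the bases before the GENCODE starts. The promoter table matched 46 of the 54 genes with 50 windows, and Aurkb, Ccna2, Cdc25c, Foxm1, Incenp, Kif20a, Smc4 and Tpx2 were not among them. Over the 250 bases before the start, 20 of the 50 windows (40%) held a CHR, against 17.1% of all 32851 windows in the table, and 36 (72%) held a CCAAT, against 33.8%. Both elements were present in 36% of the windows of the mitosis genes and in 6.02% of all windows. With the 50 bases after the start included, the shares were 74% against 19.2% for the CHR and 74% against 37.4% for CCAAT. Cenpa then held a CHR, and Pttg1 still held neither element, as did Nuf2, Nusap1, Ncaph, Mybl2, Melk, Mad2l1 and Birc5. Apart from Pttg1, these genes rose by 1.68 (Mad2l1) to 2.50 (Nusap1) on the log2 scale in converted against monocyte-derived macrophages. Before the start, 12 of the 50 windows (24%) held neither element, against 55% of all windows. With the 50 bases after the start included, 8 (16%) did, against 50.9%. A link between the elements and the size of the change was not tested. The elements counted are matches of letters only, and they say nothing about which factor was bound in these cells.

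All 8 kinesin motors rose in both comparisons. Kif20a, which acts at the midzone and in cytokinesis, was at 11.7, 23.2 and 36.9 CPM in the monocyte-derived libraries, 93.5, 142 and 105 in the converted and 75.96, 79.4 and 75.2 in the resident libraries. Kif22, the chromosome-arm kinesin Kid, was at 17.7, 39.7 and 60.7 CPM in the monocyte-derived libraries, 115, 162 and 132 in the converted and 104, 102 and 94.6 in the resident libraries. The groups were separate for both, with converted libraries highest. Kif20a rose by 2.25 ± 0.34 (adjusted p = 0.00044) and 1.69 ± 0.33 (adjusted p = 0.00227). Kif11 (Eg5, which pushes spindle poles apart), Kif15 (its helper), Kif20b and Kif23 (cytokinesis), Kif2c (MCAK, which shortens microtubules) and Kif4 (a motor of the midzone) had changes of 1.89 to 2.55 in converted and 1.36 to 1.97 in resident macrophages. Kif4 lies on the X chromosome, and its change of 1.89 ± 0.35 in converted macrophages lay inside the range of the autosomal kinesins. This 1 gene does not show whether sex had a part in the changes, which was not tested.

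The 4 spindle assembly genes rose likewise. Nusap1, which stabilises and bundles microtubules near chromosomes, was at 17.9, 34.5 and 45.4 CPM in the monocyte-derived libraries, 150.1, 223 and 179 in the converted and 116, 119.8 and 105 in the resident libraries. Ckap2l, a spindle protein, was at 9.22, 22.1 and 33.2 CPM in the monocyte-derived libraries, 98.2, 150.4 and 106 in the converted and 69.4, 78.6 and 68.7 in the resident libraries. In both genes the groups were separate, and the resident libraries spread less than those of either other group. Nusap1 rose by 2.50 ± 0.29 (adjusted p = 9.16e-05) in converted and 1.81 ± 0.28 (adjusted p = 0.000601) in resident macrophages. Tpx2, which activates Aurora A and seeds microtubules, and Hmmr, which tethers spindle poles, rose by 1.79 ± 0.32 and 2.00 ± 0.40 in converted and by 1.25 ± 0.32 and 1.54 ± 0.40 in resident macrophages.

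All 4 cytokinesis genes rose. Racgap1, a subunit of centralspindlin that marks the division plane, was at 50.99, 85.3 and 116 CPM in the monocyte-derived libraries, 257, 352 and 281 in the converted and 208, 218 and 199 in the resident libraries. Anln, anillin, which organises the contractile ring, was at 14.9, 31.2 and 52.3 CPM in the monocyte-derived libraries, 149, 223 and 189 in the converted and 112, 119.7 and 115 in the resident libraries. Ect2, the exchange factor that switches on RhoA at that ring, was at 6.39, 14.7 and 28.3 CPM in the monocyte-derived libraries, 70.5, 99.2 and 72.96 in the converted and 42.98, 46.8 and 43.8 in the resident libraries. None of the 3 genes had overlapping groups, and Ect2 was the gene with the largest log2 difference between converted and resident macrophages. Ect2 rose by 2.31 ± 0.41 (adjusted p = 0.0012) and 1.45 ± 0.40 (adjusted p = 0.014) from the monocyte-derived level, and Prc1, which bundles midzone microtubules, by 2.28 ± 0.36 and 1.60 ± 0.35.

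Both transcription factors of the set rose. Foxm1, an activator of G2 and M phase genes, was at 10.8, 26.1 and 33.5 CPM in the monocyte-derived libraries, 72.05, 108 and 84.4 in the converted and 59.7, 59.7 and 60.98 in the resident libraries. Mybl2 (B-Myb), which joins the MuvB complex, was at 9.64, 18.9 and 25.2 CPM in the monocyte-derived libraries, 54.1, 83.2 and 58.7 in the converted and 39.02, 46.2 and 36.7 in the resident libraries. Foxm1 was nearly level across resident libraries, and both were lowest in monocyte-derived library 1. Foxm1 rose by 1.92 ± 0.33 (adjusted p = 0.00104) and 1.36 ± 0.33 (adjusted p = 0.0068), and Mybl2 by 1.87 ± 0.30 and 1.19 ± 0.30.

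All 5 condensin genes, whose products form the ring that compacts chromosomes, rose. Smc2, a core ATPase of both condensins, was at 27.02, 48.2 and 67.1 CPM in the monocyte-derived libraries, 116, 179.9 and 135 in the converted and 94.1, 91.3 and 90.8 in the resident libraries. Smc4, its partner, was at 46.4, 63.99 and 90.04 CPM in the monocyte-derived libraries, 160.1, 215 and 158 in the converted and 134, 138 and 129 in the resident libraries. In each the groups were separate. Smc4 and Smc2 had the smallest changes of the 5, at 1.41 ± 0.22 and 1.60 ± 0.28 in converted and 1.002 ± 0.21 and 0.96 ± 0.28 in resident macrophages. The condensin I subunits Ncapg, Ncapd2 and Ncaph rose by 2.06 to 2.30 and by 1.58 to 1.65.

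The libraries of a group differed in these genes to different extents. The SD of log2(CPM + 1) over 3 libraries had a median over the 54 genes of 0.81 for the monocyte-derived, 0.29 for the converted and 0.07 for the resident group, against 0.20, 0.13 and 0.10 over all tested genes. Monocyte-derived library 1 was the lowest of its group for all 54 genes, and library 3 the highest for 52. The ratio of library 3 to library 1 had a median of 3.15, with a range from 1.05 for Pttg1 to 4.92 for Kif20b, and a median of 1.01 over all tested genes. Converted library 2 was the highest of its group for all 54, at a median of 1.40 times the mean of libraries 1 and 3, against 0.999 over all tested genes. At the median, the resident libraries differed less in these genes than in all tested genes, and those of the other groups differed more. The tested genes were not matched to the 54 in level, on which this SD depends.

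Other transcripts also differed between these libraries, not all of them in the order of the mitosis genes. Ccr2, a receptor of recruited monocytes, was at 1343, 463 and 661 CPM in the monocyte-derived libraries, so the library lowest in mitosis genes was the highest in Ccr2, and at 2.29, 2.47 and 2.19 in the converted and 10.3, 9.64 and 11.7 in the resident libraries. A list of 5 monocyte or dendritic markers, all 5 at 1 CPM or more in that group, summed to 1609, 716.7 and 971.5 CPM there, to 20.2 to 79.8 in the converted and to 177 to 193.0 in the resident libraries. A list of 7 neutrophil markers, 4 of them at 1 CPM or more, summed to 14.9, 18.3 and 49.3 CPM in monocyte-derived libraries 1, 2 and 3 and to at most 1.54 CPM in all other libraries. A list of 5 NK-cell markers summed to 14.8, 23.4 and 87.4 CPM for the monocyte-derived, to 1.44 to 1.94 for the converted and to 13.1 to 20.7 for the resident group. In both lists library 1 was the lowest and library 3 the highest of the monocyte-derived group, as in the sum of the mitosis genes. Other lists ran otherwise in these libraries. A list of 4 plasma-cell markers, 1 of them at 1 CPM or more, summed to 35.7, 125.4 and 118.4 CPM. A list of 6 erythroid markers, 3 of them at 1 CPM or more, summed to 20.8, 0.982 and 7.05 CPM. A list of 8 T-cell markers summed to 2.88, 1.62 and 9.51 CPM in monocyte-derived libraries 1, 2 and 3, to 1.35 to 5.09 for the converted and to 15.2 to 28.6 for the resident group. Of its 6 tested genes 5 were called higher in resident than in monocyte-derived macrophages, where 25.7% of all tested genes were. In converted against resident macrophages 4 of the 6 were called lower, where 4.26% of all tested genes were. The part of such cells in the results was not tested.

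B-cell transcripts moved with the resident group. A list of 12 B-cell markers summed to 55.2, 41.2 and 82.0 CPM for the monocyte-derived, 74.8, 187.7 and 88.1 for the converted and 1195, 1308 and 1546 for the resident group, with 7, 11 and 12 of the 12 at 1 CPM or more and none at 0 in any group. Converted library 2, the highest of its group in mitosis genes, was also the highest of its group in this list. The part of B cells in the results was not tested beyond the covariate fit that follows. With the log2 sum of this list as a covariate, 50 of 54 genes were called in converted and 0 in resident against monocyte-derived macrophages, where 38.1% and 1.34% of tested genes were called. In the latter 11 of the 54 stayed positive and 43 were negative, with an SE of 0.487 to 1.70 a gene. The median SE over all tested genes in that comparison was then 0.742, against 0.168 without the covariate, and 0 of the 54 had an unadjusted p below 0.05 in edgeR.

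A list of 6 markers of cycling myeloid progenitors summed to 9.12 to 16.7 CPM for the monocyte-derived, 135.1 to 167.5 for the converted and 167.2 to 195.4 for the resident group. Prtn3 carried that sum, at 13.8, 8.37 and 6.27 CPM in the monocyte-derived libraries, 139, 167 and 134 in the converted and 194, 166 and 170.0 in the resident libraries. The others (Mpo, Elane, Ctsg, Kit and Cd34) were below 1 CPM in the converted and resident means, with Kit at 0 in the converted and Mpo at 0 in the resident libraries.

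Converted macrophages had higher values than resident ones for most of these genes, but no single difference passed the test when all 9 libraries were fitted together. The log2 change was positive for 53 of 54, with a median of 0.53 (1.45-fold) and a range from -0.32 for Pttg1 to 0.86 for Ect2, and the median over all tested genes was 0.01. For 50 of the 54, every converted library lay above every resident library, which held for 19.6% of tested genes, and for 1, Pttg1, every converted library lay below, which held for 17.7%. None of the 54 was called by edgeR's quasi-likelihood test, where 6.07% of tested genes were called in either direction. At an unadjusted p below 0.05 edgeR counted 7 of the 54, where it counted 2749 of the 13223 tested genes. These 7 were Kif11, Nusap1, Cdc25b, Mybl2, Smc2, Ncaph and Pttg1. At that level DESeq2 counted 14 and limma-voom 18 of the 54. Neither of these called any of the 54 after adjustment, where they called 1364 and 869 of all tested genes. A p that misses the threshold does not show that the groups were equal.

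The fit of all 9 libraries shares 1 estimate of spread per gene across groups, and the monocyte-derived libraries spread most. When the converted and resident libraries were fitted alone, 35 of the 54 were called, 34 higher and 1 lower in converted macrophages, where 16.2% of tested genes were called. Without monocyte-derived library 1, 26 were called, against 12% of tested genes. With both monocyte-derived library 1 and converted library 2 left out, a setting chosen after seeing the data, 11 were called, against 9% of tested genes, and the median log2 change was 0.32. The fit without converted library 2 called 0, against 3.92% of tested genes, with a median of 0.34 and 1 gene at an unadjusted p below 0.05 in edgeR. With converted libraries 1 and 3 alone, 50 genes still had both libraries above every resident library, and the mean of the pair exceeded the resident mean by a median of 1.27 times.

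By role, the converted to resident difference was widest in cytokinesis genes, with a median log2 change of 0.69 over the 4 genes, and narrowest in anaphase genes, with 0.32 over 5. Ect2 (0.86 ± 0.39), Bub1 (0.76 ± 0.35), Top2a (0.76 ± 0.36) and Ncapg (0.73 ± 0.40) had the largest differences, with adjusted p-values from edgeR of 0.243, 0.258, 0.272 and 0.354. In the fit of the 2 groups alone the values of Ect2 and Bub1 were 0.84 ± 0.13 (adjusted p = 0.00325) and 0.74 ± 0.12 (adjusted p = 0.00454). Pttg1 was at -0.32 ± 0.10 (adjusted p = 0.103) with all 9 libraries and at -0.34 ± 0.09 (adjusted p = 0.0317) with the 2 groups alone. The smallest positive differences were those of Cdc25c (0.24 ± 0.33), Cenpa (0.26 ± 0.25) and Cdc20 (0.28 ± 0.28), none of them called in either fit.

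**Figure D4:**
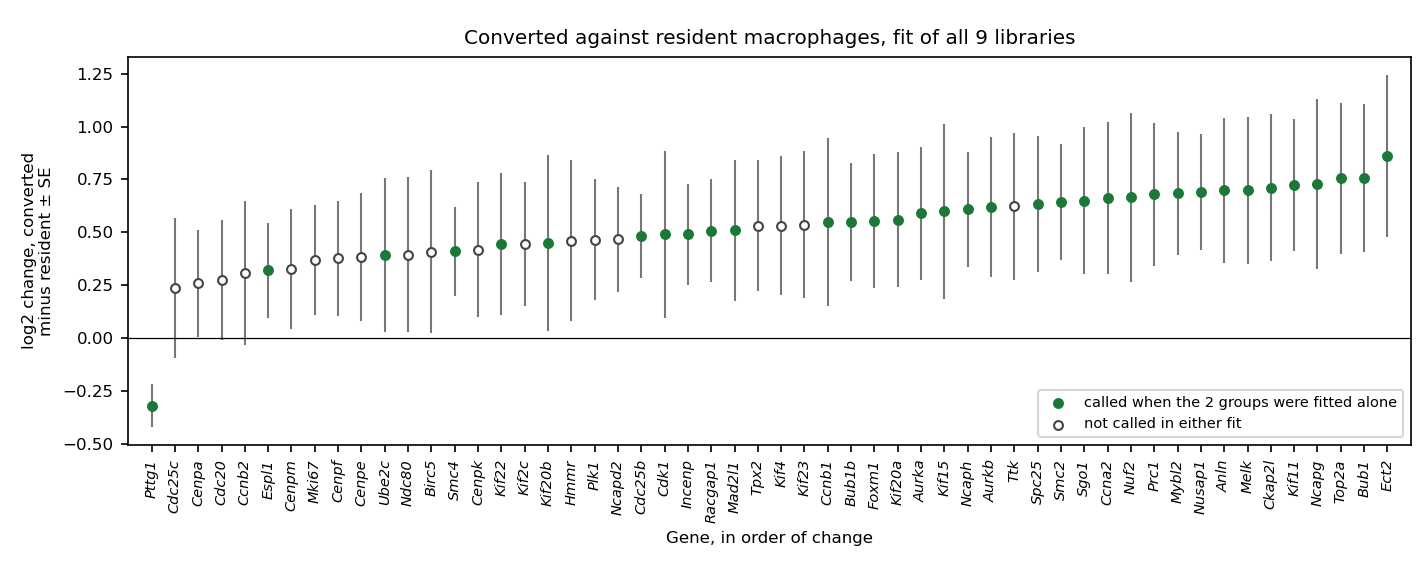
The log2 change of each gene in converted minus resident macrophages (vertical axis, edgeR fit of all 9 libraries, bars ± SE), in order of size. No gene was called in this fit; filled points are the 35 called when the converted and resident libraries were fitted alone, and Pttg1 is the 1 point below 0.

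Other genes of mitosis were counted from lists chosen by function, with earlier results of these data known. Of 109 further genes, 97 were higher and 1 lower in converted, and 74 higher and 1 lower in resident, against monocyte-derived macrophages. Over all tested genes, 25.8% and 25.7% were called higher in these comparisons, in that order, and 24.9% lower in each. In converted against resident macrophages 4 were higher and 0 lower, where 1.82% and 4.26% of tested genes were. Their median log2 changes were 1.47 and 0.96 against the monocyte-derived group, below those of the 54 genes.

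In kinetochore and checkpoint genes, 31 of 32 were higher in converted and 24 in resident macrophages, where 25.8% and 25.7% of tested genes were. Kntc1, a subunit of the RZZ complex that holds the checkpoint at kinetochores, rose most in converted macrophages, by 2.30 ± 0.32, and Knl1, the kinetochore platform for Bub proteins, in resident macrophages, by 1.84 ± 0.34. Bub3, the partner of Bub1, was 1 of the genes higher in converted than resident macrophages, by 0.31 ± 0.08 (edgeR adjusted p = 0.0393). Among 28 spindle, centrosome and cytokinesis genes, 26 were higher and 1 lower in converted, and 23 higher and 1 lower in resident macrophages. Stil, needed to copy centrioles, rose by 2.56 ± 0.23 in converted and Kifc1, which clusters spindle poles, by 2.24 ± 0.45 in resident macrophages. The 2 that fell were Kif3b, a transport kinesin, at -0.37 ± 0.11 in converted, and Kif2a, a kinesin that shortens microtubules, at -0.53 ± 0.16 in resident macrophages.

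Of 24 anaphase and cohesin genes, 15 were higher in converted and 7 in resident macrophages, where 25.8% and 25.7% of all tested genes were, and their median log2 change was 0.47 and 0.15. Sgo2a, a shugoshin, rose most in both, by 2.73 ± 0.25 and 2.12 ± 0.25. Pds5b, a cohesin regulator, was higher in converted than resident macrophages by 0.56 ± 0.13 (edgeR adjusted p = 0.0357). All 11 genes of condensin II and chromosome structure were higher in converted and 9 in resident macrophages, led by the kinase Pbk (2.87 ± 0.41) and by Cdca2 (2.18 ± 0.34), which brings a phosphatase to chromosomes. The 14 genes of G2 to M control were all higher in converted and 11 in resident macrophages, with Ccnf, cyclin F, at 2.48 ± 0.30 and 1.88 ± 0.29. Cdk2, which acts in S phase, was higher in converted than resident macrophages by 0.50 ± 0.12 (edgeR adjusted p = 0.0365).

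Of 23 regulators of these genes (DREAM, E2F and MuvB components), 12 were higher and 2 lower in converted, and 9 higher and 3 lower in resident macrophages, where 25.8% and 25.7% of all tested genes were called higher and 24.9% lower in each, with a median log2 change of 0.26 and 0.14. E2f7, a repressor that E2F itself induces, rose by 2.44 ± 0.25 and 1.67 ± 0.25. E2f5, an E2F of the repressor kind, was lower in converted macrophages at -0.92 ± 0.22, and Myb, a relative of Mybl2, was lower in resident macrophages at -1.82 ± 0.49. Tfdp1, the DNA-binding partner of E2F proteins, was at 75.02, 79.9 and 75.7 CPM in the monocyte-derived libraries, 140.2, 172 and 139.7 in the converted and 91.6, 104 and 90.5 in the resident libraries. It was higher in converted than resident macrophages by 0.66 ± 0.10 (edgeR adjusted p = 0.00596), with no overlap between the groups.

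DNA replication genes rose too. Of 40, 37 were higher in converted and 32 in resident macrophages, where 25.8% and 25.7% of all tested genes were. Their median log2 change was 1.49 and 0.86. Rrm2, which supplies deoxynucleotides, led both, at 2.63 ± 0.40 and 1.90 ± 0.39. Their summed CPM was 952.9, 1527 and 1925 for the monocyte-derived, 3854, 5480 and 3869 for the converted and 2666, 3085 and 2768 for the resident group. The log2 ratio of the summed mitosis genes to the summed replication genes was -0.34, 0.06 and 0.21 for the monocyte-derived, 0.44, 0.48 and 0.57 for the converted and 0.69, 0.51 and 0.59 for the resident group. All monocyte-derived libraries lay below all others in this ratio, and converted and resident libraries overlapped.

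**Figure D5:**
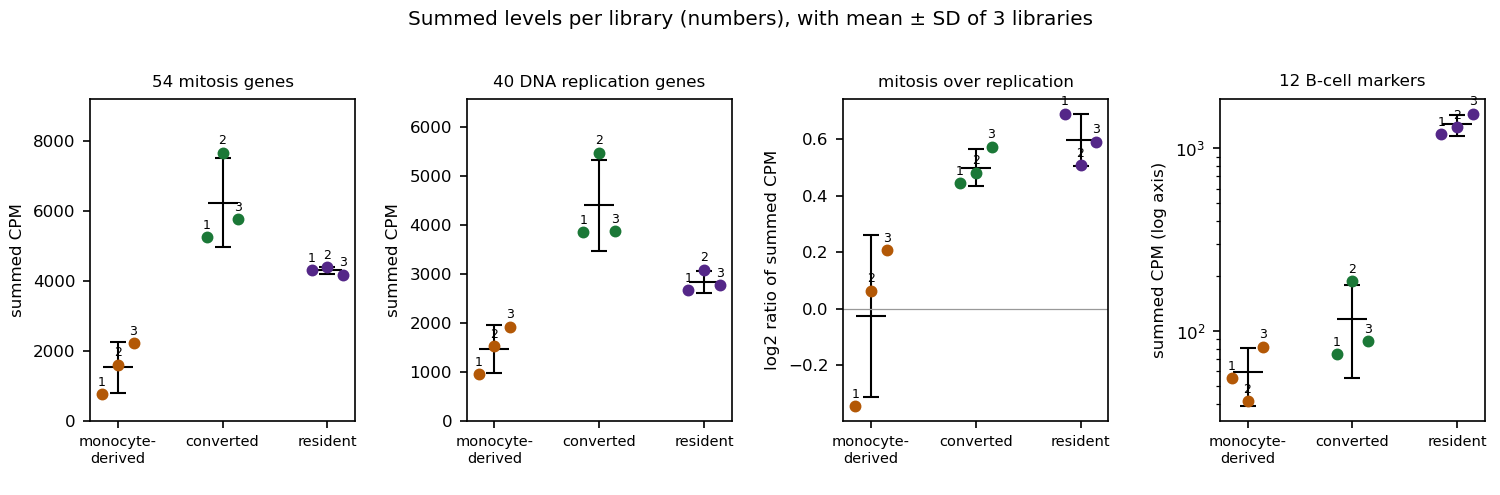
Summed CPM of the 54 mitosis genes, of 40 DNA replication genes and of 12 B-cell markers (log axis), and the log2 ratio of the first 2 sums, in each library (points, numbered by library), with the mean and SD of the 3 libraries of a group. The mitosis sum is lowest in the monocyte-derived and highest in the converted libraries, the ratio separates the monocyte-derived libraries from the rest, and the B-cell sum is at 1195 CPM or more in the resident libraries alone.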

How the data were processed

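The deposited files give read counts per Ensembl gene, 1 file a library. The authors' tools included TopHat2 2.1.0 and HTSeq, with the build GRCm38, as listed in the submitters' processing notes. Strand and annotation were not stated in those notes, so overlapping genes may share reads. The 5 summary lines were left out (no feature 4.02 to 5.66%, ambiguous 4.47 to 4.68%). GENCODE M21 named 47224 identifiers.

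edgeR 4.0.16 (R 4.3.3) fitted the counts of all 9 libraries (minimum count 10, TMM, robust quasi-likelihood test, Benjamini-Hochberg over 13223 genes, call below 0.05). SE is the log2 change over the root of F. CPM used TMM-scaled totals. DESeq2 1.42.0, limma-voom (limma 3.58.1), other scalings, filters, covariates and left-out libraries were alternatives. The code was tested on simulated counts.

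The members and lists were chosen with earlier results of these data known. Values per library are printed for Mki67, the 2 highest genes per kilobase in each role, and the 3 largest and 3 smallest changes per comparison; of other lists, the largest called change in each direction. ATAC-seq, named in the design, was not analysed here.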

Additional observations from a re-analysis of the deposited data

How the results depend on the processing

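In converted against monocyte-derived macrophages, 50 to 54 of the 54 genes were called under every alternative run, and the median log2 change kept its sign. Leaving out each library in turn gave 53 to 54 called and medians of 1.65 to 2.47. In resident against monocyte-derived macrophages the same gave 48 to 54 called and medians of 1.15 to 1.95. No filter on low counts gave 34 called, with 25750 genes tested. The B-cell index as a covariate gave 0 called, a median of -0.47 and, on the log2 scale, Kif15 -1.81, Ndc80 -1.67, Kif20b -1.52, Kif23 -1.24, Ect2 -1.24, Nuf2 -1.22, Ccna2 -1.14, Smc2 -1.12, Aurkb -1.06, Ncapg -0.99, Cenpk -0.96, Top2a -0.89, Mybl2 -0.82, Smc4 -0.77, Birc5 -0.75, Sgo1 -0.69, Kif20a -0.68, Kif22 -0.64, Hmmr -0.63, Tpx2 -0.58, Ckap2l -0.58, Ccnb1 -0.54, Anln -0.53, Foxm1 -0.51, Incenp -0.51, Ncapd2 -0.49, Ncaph -0.45, Cenpf -0.42, Cdk1 -0.41, Racgap1 -0.38, Kif4 -0.37, Kif11 -0.35, Kif2c -0.28, Melk -0.22, Ccnb2 -0.22, Prc1 -0.21, Spc25 -0.15, Bub1 -0.14, Cenpe -0.12, Mad2l1 -0.0493, Bub1b -0.0347 and Ube2c -0.0284. Cenpa, not called without the covariate, was at -0.60 as well, and 11 of the 54 stayed positive, among them Espl1 at 2.25 ± 1.06 and Pttg1 at 1.10 ± 0.49. The SE of the 54 in that fit had a median of 1.35, and 1.34% of all tested genes were called in it. In converted against resident macrophages, leaving out each library in turn gave 0 to 26 called, the 26 without monocyte-derived library 1, and medians of 0.34 to 0.63. The fit of those 2 groups alone gave 35. Leaving out monocyte-derived library 1 and converted library 2 together (added after seeing the data) gave 11. The B-cell index gave a median of 2.11 with 0 called in edgeR, as were 0 of all 13223 tested genes. In that fit 23 of the 54 had an unadjusted p below 0.05, and the share over all tested genes is not given here. The median SE over all tested genes was 0.601 there, against 0.165 without the index. The B-cell sum was 74.8 to 187.7 CPM in the converted and 1195 to 1546 CPM in the resident libraries. Index and group thus nearly coincide in this comparison too. Other settings gave 0 called. The cause was not tested.

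Adding the replicate block (the number in the titles) to the fit left 54, 53 and 0 genes called in these comparisons, and 10 at an unadjusted p below 0.05 in the last. Same-numbered libraries showed correlations of -0.09 to 0.07 between their deviations, so the number is not taken as a pairing. Over all tested genes, converted against resident gave 240 higher and 563 lower with TMM, and 126 and 543 with library size alone. Depth limits the lowest genes most, and 3 libraries a group limit all tests.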
